A study of Komagataella phaffii with 9 samples.

Results

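*CRA1* (PP7435_Chr1-1522) is the gene of *Komagataella phaffii* that codes for a Gal4-like transcription factor. It was chosen by its identifier, as 1 of the 5344 sequences in the deposited tables, because its own transcript is what the compared strains differ in by design. RNA was sequenced from a *CRA1* overexpression strain, a *Δcra1* strain and a control strain, with 3 shake-flask cultures of each. All strains derive from CBS 7435 and carry an eGFP reporter, which the study's methods place behind the promoter of the glyceraldehyde-3-phosphate dehydrogenase gene and its strain list writes as P9::egfp. The overexpression strain has an additional *CRA1* construct made with the GoldenPiCS cloning system, the *Δcra1* strain lost the gene through a split marker cassette, and the control has neither change. The promoter of the construct is not given in the sources used here. All cells were precultured in YP medium with 25 µg per mL Zeocin at 25 °C, moved to M2 minimal medium with 5 g per L glucose and collected in exponential growth. A single transformant stood for each strain, so that libraries of 1 strain differ as cultures of 1 clone do.

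Gal4 of the baker's yeast *Saccharomyces cerevisiae* is the textbook member of the fungal zinc cluster factors, which hold zinc ions in a cysteine-rich domain and bind DNA as pairs. There it switches on the genes of galactose use, but in other yeasts such as *Candida albicans* a Gal4-like factor has been linked to the genes of glycolysis instead. *K. phaffii* normally respires glucose with little fermentation, and the study asked how far a single Gal4-like factor can alter this.

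The libraries were shallow. Total counts were 213700, 114609 and 139065 in overexpression replicates 1, 2 and 3, between 193566 and 223825 in the *Δcra1* libraries, and between 106343 and 108535 in the control libraries. Taking 3 counts as the limit, a sequence with 0 counts could still make up 0.00134% of the deepest library and 0.00282% of the shallowest, and such limits cover counting error only. Overexpression replicate 1 stood apart from the other libraries: the median of 2558 genes lay at −0.41 relative to the control mean on the log2 scale after scaling with edgeR's TMM factors, against −0.01 and −0.10 in overexpression replicates 2 and 3. The share of counts on mitochondrially encoded genes also varied, at 0.446%, 0.0358% and 0.201% in the overexpression libraries, 0.130% to 0.282% in the *Δcra1* libraries and 0.0301% to 0.0572% in the control libraries.

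*CRA1* had 810, 95 and 316 estimated counts in overexpression replicates 1, 2 and 3, against 0 counts in each *Δcra1* library and 11 counts in each control library. The libraries of the 3 strains did not overlap, and the targeted gene followed the labels in all 9 libraries. The 95% Poisson intervals of the overexpression counts were 755 to 868, 76.9 to 116 and 282 to 353. In a control library the interval of 11 counts was 5.49 to 19.7, so that the equal counts of the control libraries say little about how evenly the gene was transcribed. As a share of all counts, *CRA1* took 0.379%, 0.0829% and 0.227% of the overexpression libraries, against 0.0101%, 0.0101% and 0.0103% of the control libraries. Reads of the native gene and of the introduced copy are counted together and cannot be told apart.

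In TPM, the level per unit of length on a total that is equal in every library, *CRA1* reached 671, 181 and 455 TPM in the overexpression libraries, with a mean of 436 ± 246 TPM (SD, n = 3). It was listed at 0 TPM in the *Δcra1* libraries, where 3 counts would have given 2.67 to 2.84 TPM. In the control libraries it stood at 18.7, 17.2 and 19.9 TPM, with a mean of 18.6 ± 1.37 TPM (SD, n = 3). The strains were thus separated in the order overexpression, control and *Δcra1*. For each pair of strains the exact two-sided permutation test of mean TPM gave p = 0.1, which is the smallest value that 3 libraries against 3 allow. The annotated sequence is 2988 bases long, a multiple of 3, as a coding sequence without untranslated regions would be.

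**Figure D1:**
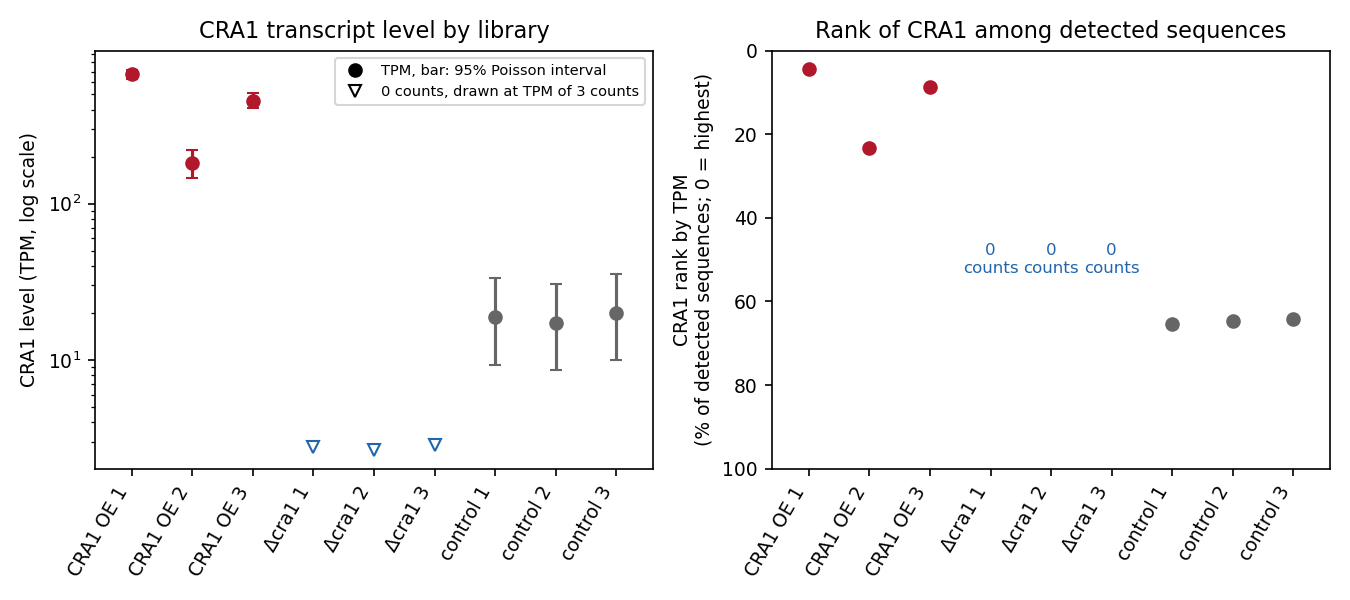
Level of CRA1 in each of the 9 libraries, with overexpression at the left, Δcra1 in the middle and control at the right. Left panel, TPM on a log axis with the 95% Poisson interval of the count as the bar, and open triangles at the TPM of 3 counts where no count was found. Right panel, the rank of CRA1 by TPM as a percentage of the detected sequences of the library, which runs from 4.27% to 23.3% in the overexpression strain and from 64.3% to 65.5% in the control.

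Among the sequences detected in a library, *CRA1* moved between the upper and the lower part of the list. By TPM it ranked 219 of 5123, 1097 of 4705 and 429 of 4917 detected sequences in overexpression replicates 1, 2 and 3, which is the top 4.27%, 23.3% and 8.72%. In the control libraries it ranked 3018 of 4609, 2896 of 4484 and 2919 of 4542, the top 65.5%, 64.6% and 64.3%. The gene was thus among the more abundant messages in every overexpression library and below the median in every control library. Its TPM was 13.6, 4.27 and 9.77 times the median detected sequence in the overexpression libraries, against 0.470, 0.494 and 0.504 times in the control libraries.

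*CRA1* was also ranked among 10 other genes annotated as zinc cluster factors, the protein family it belongs to. By TPM it took rank 1, 2 and 2 of these 11 genes in overexpression replicates 1, 2 and 3, rank 11 in every *Δcra1* library and rank 7, 8 and 8 in control replicates 1, 2 and 3. The highest of the 10 others in the overexpression and control libraries was PP7435_Chr3-0715, annotated with a Gal4-like domain and the middle homology region of fungal transcription factors. That gene had 310, 559 and 521 TPM in the overexpression libraries and 501, 509 and 637 TPM in the control libraries. The 10 others are those that the study's table names as past its cutoffs, so that the rank is not one within the whole family.

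In the fit across all genes, *CRA1* was called higher in the overexpression strain than in the control. Its log2 fold change was 4.75 with a standard error of 0.65 (adjusted p = 0.0031, Benjamini-Hochberg adjustment in edgeR's quasi-likelihood fit). Calls required an adjusted p under 0.05 together with a log2 fold change of at least 1 in size. This fold change was the sixth largest in size among 1986 genes tested, of which 7.15% were called higher and 0.806% lower, together 7.96%. The 158 calls behind these shares became 62, 44 and 75 without control replicates 1, 2 and 3, and 574 and 86 without overexpression replicates 2 and 3. The ratio of the mean TMM-scaled CPM, which are counts on a common library total, was 19.8, from 2174 ± 1240 CPM in the overexpression strain and 110 ± 1.45 CPM in the control (SD, n = 3 each). Library by library, *CRA1* was 30.9-fold, 8.25-fold and 20.4-fold above the control mean in overexpression replicates 1, 2 and 3. It was called under each of 16 alternative settings with a test, at log2 fold changes of 4.02 to 5.10, the lowest without overexpression replicate 1 and the highest without overexpression replicate 2.

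In the *Δcra1* strain *CRA1* was called lower than in the control (adjusted p = 1.93e-08, Benjamini-Hochberg adjustment in edgeR's quasi-likelihood fit over 2392 genes). Since no count was found, the difference is given as a bound. Against 3 counts in each *Δcra1* library, *CRA1* was at least 8.04-fold lower in CPM in the *Δcra1* strain than in the control. Of the 2392 genes, 13.1% were called higher and 8.53% lower in this comparison, together 21.6%. The absence of counts was rare among genes of this level. Of 2494 genes with at least 3 counts in each of the other 6 libraries, *CRA1* was the only one with 0 counts in all *Δcra1* libraries. Among all sequences, without that minimum, 500 had 25 to 45 counts summed over the control libraries, where *CRA1* had 33. *CRA1* was the only one of the 500 with 0 counts in all *Δcra1* libraries.

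Between the overexpression and the *Δcra1* strain *CRA1* was called higher (adjusted p = 4.62e-06, Benjamini-Hochberg adjustment in edgeR's quasi-likelihood fit over 3071 genes). Taking 3 counts in each *Δcra1* library, the gene was at least 159-fold higher in the mean of the overexpression libraries, and at least 248-fold, 66.3-fold and 164-fold higher in replicates 1, 2 and 3. In this comparison 9.8% of the genes tested were called higher and 5.67% lower, together 15.5%. The comparison shares its libraries with the other comparisons, so that the 3 contrasts are not independent of each other.

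The sequences introduced into the strains were counted beside *CRA1*. The sources used here do not state which strain carries the Kanamycin resistance sequence, so that its counts are no check on the labels. The Kanamycin resistance sequence had 19, 10 and 16 counts in overexpression replicates 1, 2 and 3, against 1751, 1526 and 1679 counts in the *Δcra1* libraries and 0 in each control library. The high level was thus found where *CRA1* was absent, and a low level where *CRA1* was overexpressed. In CPM the overexpression values of Kanamycin were 79.3, 95.2 and 113, with overlapping 95% Poisson intervals of 47.8 to 124, 45.6 to 175 and 64.7 to 184. The ratio of *CRA1* to Kanamycin in CPM was 42.6, 9.50 and 19.8 in these libraries. The differences of *CRA1* between overexpression libraries were therefore not matched by differences of Kanamycin that could be detected at this depth. The Zeocin resistance sequence had 34, 6 and 11 counts in the overexpression libraries, 18, 17 and 21 in the *Δcra1* libraries and 12, 10 and 15 in the control libraries, and it was called in none of the comparisons.

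The egfp reporter moved in the same direction as *CRA1*. It had 218, 72 and 133 counts in the overexpression libraries, 27, 14 and 13 counts in the *Δcra1* libraries and 39, 26 and 45 counts in the control libraries. Its CPM was 910, 685 and 941 in the overexpression libraries, 127, 67.9 and 53.3 in the *Δcra1* libraries and 383, 261 and 452 in the control libraries, with no overlap between strains. Against the control, the reporter had a log2 fold change of 1.57 with *CRA1* overexpressed (adjusted p = 0.016) and of −2.07 with *CRA1* deleted (adjusted p = 1.32e-06), each after Benjamini-Hochberg adjustment in edgeR's quasi-likelihood fit. The overexpression libraries spread much less in egfp than in *CRA1*, whose CPM differed 3.74-fold between the highest and the lowest of them.

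**Figure D2:**
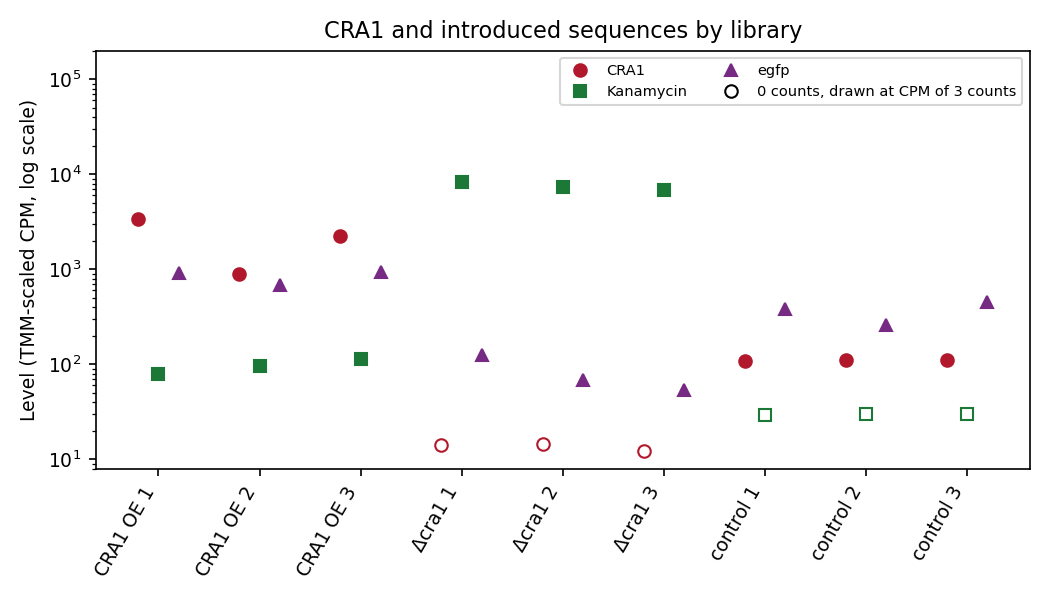
CRA1, Kanamycin and egfp in each library, as TMM-scaled CPM on a log axis, from overexpression at the left over Δcra1 to control at the right. Open symbols mark 0 counts and stand at the CPM of 3 counts. Kanamycin lies between 6882 and 8217 CPM in the Δcra1 libraries, where CRA1 has no counts, and between 79.3 and 113 CPM in the overexpression libraries.

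The genes next to *CRA1* on chromosome 1 by identifier number were read beside it. PP7435_Chr1-1521 had 5, 5 and 1 counts in the overexpression libraries, 7, 6 and 6 in the *Δcra1* libraries and 2, 2 and 4 in the control libraries, too few to be tested. On the other side, *RDH54* (PP7435_Chr1-1523), which in *S. cerevisiae* codes for a DNA translocase of recombinational repair, had 667, 811 and 674 counts in the overexpression libraries. It had 667, 592 and 585 counts in the *Δcra1* libraries and 675, 819 and 709 in the control libraries. Its log2 fold change was −1.31 in the *Δcra1* strain (adjusted p = 2.39e-12), where it was called lower, and −0.30 in the overexpression strain (adjusted p = 0.36), both against the control with Benjamini-Hochberg adjustment in edgeR's quasi-likelihood fit. Of all genes tested, 8.53% were called lower in the *Δcra1* strain. Both neighbours still had counts in every *Δcra1* library, which does not show how far the deletion reached. The sources used here state no strand setting, which leaves the counts of any gene that overlaps a neighbour uncertain.

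The overexpression libraries gave 3 unequal levels of *CRA1* within 1 strain, replicate 1 above replicate 3 above replicate 2. The CPM values were 3383, 904 and 2235 in replicates 1, 2 and 3, and their 95% Poisson intervals of 3154 to 3624, 732 to 1105 and 1996 to 2496 did not overlap. The order was the same in TPM and with library totals in place of TMM factors. The normalized counts that the authors deposited for the overexpression and control strains gave it too, at 437, 113 and 273 in overexpression replicates 1, 2 and 3, against 13.0, 13.4 and 13.7 in the control libraries. Total counts and the mitochondrial share of the libraries had this order as well, and their part in it was not tested. On the log2 scale, *CRA1* differed by 1.90 between overexpression replicates 1 and 2. Of 2558 other genes averaging 10 counts or more, 7.90% had a larger difference in this direction, and 10.8% had a larger SD of log2 CPM over the overexpression libraries than the 0.97 of *CRA1*.

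Other genes were set against this order by their CPM in the same libraries, as a description without a test. Of the 2558 genes, 580 (22.7%) had the order of *CRA1*, replicate 1 above 3 above 2. The most frequent order was the opposite one, replicate 2 above 3 above 1, with 1052 genes (41.1%). Among the genes called higher in the overexpression strain than in the control, 45 of the 137 that could be ordered (32.8%) had the order of *CRA1* and 45 had the opposite one. Of the 15 genes called lower that could be ordered, 0 had the order of *CRA1*. The share depended on the genes and the scaling, since 28.3% of the genes had the order of *CRA1* with library totals in place of TMM factors, and 13.6% of 1312 genes did with a mean of 30 counts or more.

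All 11 genes of a list of glycolytic and fermentative enzymes had the *CRA1* order, and so did 3 further glycolytic genes, *GLK1*, *TPI1* and *PGK1*. Their difference between overexpression replicates 1 and 2 had a median of 1.60 on the log2 scale over the 14 genes, beside 1.90 for *CRA1*, while the median of the 2558 genes was −0.47. Of 4 thiamine genes, *THI20*, *THI4* and *THI11* of thiamine synthesis had the *CRA1* order. The thiamine transporter gene *THI7* did not, with 509, 552 and 347 CPM in overexpression replicates 1, 2 and 3. Of the 9 zinc cluster genes with enough counts, 1 had the *CRA1* order, and the median difference between replicates 1 and 2 was −0.30. These lists were drawn from genes that the study names, and its table of names holds only genes past its own cutoffs in at least 1 pair of strains, so that members had been selected for change.

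**Figure D3:**
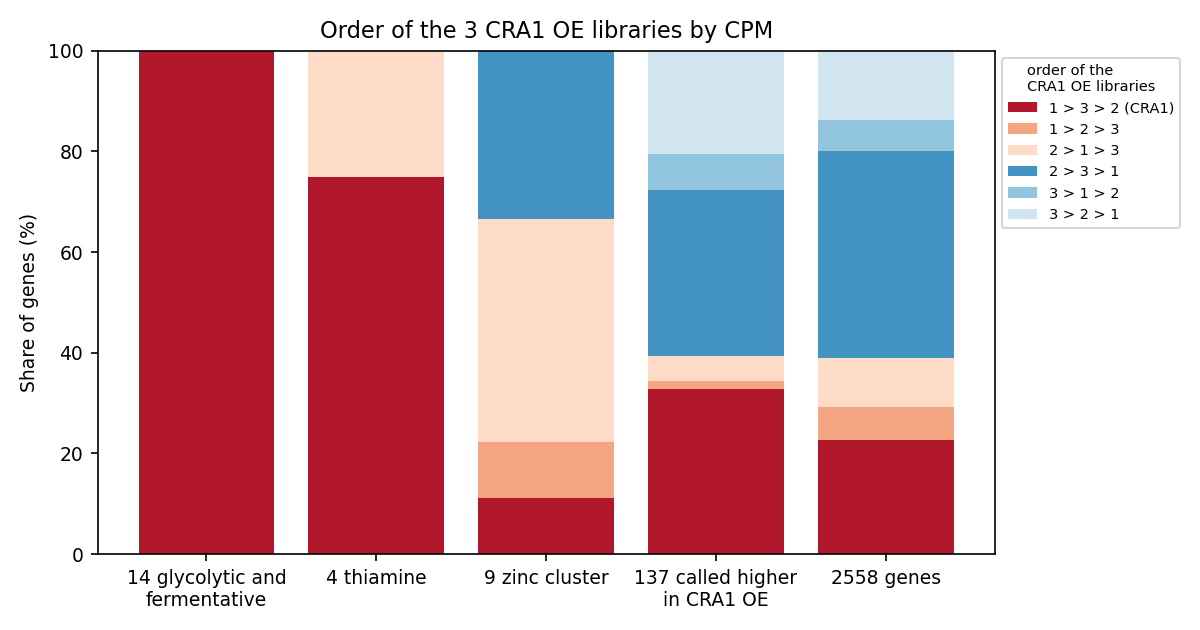
Share of genes with each possible order of the 3 overexpression libraries by CPM, as stacked percentages for 14 glycolytic and fermentative genes, 4 thiamine genes, 9 zinc cluster genes, the 137 genes called higher in the overexpression strain and 2558 genes averaging 10 counts or more. The darkest red is the order of CRA1, which holds 100% of the glycolytic genes and 22.7% of the 2558 genes.

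Glycolysis breaks glucose down to pyruvate, and fermentation turns pyruvate into ethanol through pyruvate decarboxylase (*PDC1*) and alcohol dehydrogenase (*ADH2*). With *CRA1* high, all 11 genes of the glycolytic and fermentative list were called higher than in the control. Their log2 fold changes ran from 2.14 for *PDC1* to 3.62 for *GPM1*, with a median of 2.76 beside 0.02 over all 1986 genes, of which 7.15% were called higher. *HXK1*, a hexokinase gene at the entry of the pathway, had 138, 19 and 69 counts in the overexpression libraries, against 8, 8 and 9 in the control libraries. *TPI1*, the triose phosphate isomerase gene, and *PGK1*, the phosphoglycerate kinase gene, were called higher as well, at 3.16 and 2.99. *HXK1*, *PFK1* and *TPI1* passed the count filter through the overexpression libraries, where they are high. For these genes the filter favoured a higher call. The glucokinase gene *GLK1* was not called, at 1.15 (adjusted p = 0.17, Benjamini-Hochberg adjustment in edgeR's quasi-likelihood fit). The number of calls depended on the control libraries. When control replicate 1, 2 or 3 was left out, 4, 0 and 1 of the 11 genes were called higher, against 8 to 11 when an overexpression replicate was left out. The log2 fold change of *GPM1* was 3.42, 3.39 and 3.66 without control replicates 1, 2 and 3. Of the 3 further glycolytic genes, 2 were called without control replicate 1, and 1 without control replicate 2 or 3.

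With *CRA1* absent, calls against the control went both ways, with 6 of the 11 genes lower and 2 higher, beside 8.53% and 13.1% of all genes tested. The 6 lower genes were *GPM1*, *ADH2*, *ENO1*, *TDH3*, *FBA1-1* and *PFK2*, at log2 fold changes of −3.37 to −1.40, and *GLK1* and *PGK1* were called lower at −2.44 and −1.81. The subunit genes of phosphofructokinase went apart. *PFK2*, the beta subunit gene, had 6, 9 and 13 counts in the *Δcra1* libraries and 11, 11 and 14 in the control libraries, at a log2 fold change of −1.40. *PFK1*, the alpha subunit gene, had 276, 243 and 258 counts in the *Δcra1* libraries and 11, 10 and 9 in the control libraries, at 3.63. *PFK1* was also higher in the overexpression strain than in the control, with 157, 25 and 77 counts and a log2 fold change of 2.69, so that its level did not follow that of *CRA1* over the 3 strains. *HXK1* was likewise called higher in both, at 2.75 in the overexpression strain and 1.11 in the *Δcra1* strain. The number of the 11 genes called higher in the *Δcra1* strain was 1 with DESeq2, without any 1 control library or without *Δcra1* replicate 2. Both comparisons use the same control libraries.

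Thiamine pyrophosphate is the cofactor of pyruvate decarboxylase, and all 4 thiamine genes were called lower in the *Δcra1* strain than in the control, beside 8.53% of all genes tested. Their log2 fold changes were −2.04 for *THI20*, −1.55 for *THI4*, −1.94 for *THI11* and −2.38 for *THI7*. In the overexpression strain *THI20* and *THI4* were called higher, beside 7.15% of all genes tested, at 2.15 and 2.16, while *THI11* was at 1.70 (adjusted p = 0.060) and *THI7* at 0.85 (adjusted p = 0.081) in Benjamini-Hochberg adjustment in edgeR's quasi-likelihood fit. *THI20* had 183, 37 and 86 counts in the overexpression libraries, 6, 8 and 12 in the *Δcra1* libraries and 17, 15 and 20 in the control libraries. No library of 1 strain reached those of another in *THI20* after scaling. In the overexpression comparison 0 of the 4 were called without any 1 control library, and 1 without overexpression replicate 3.

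**Figure D4:**
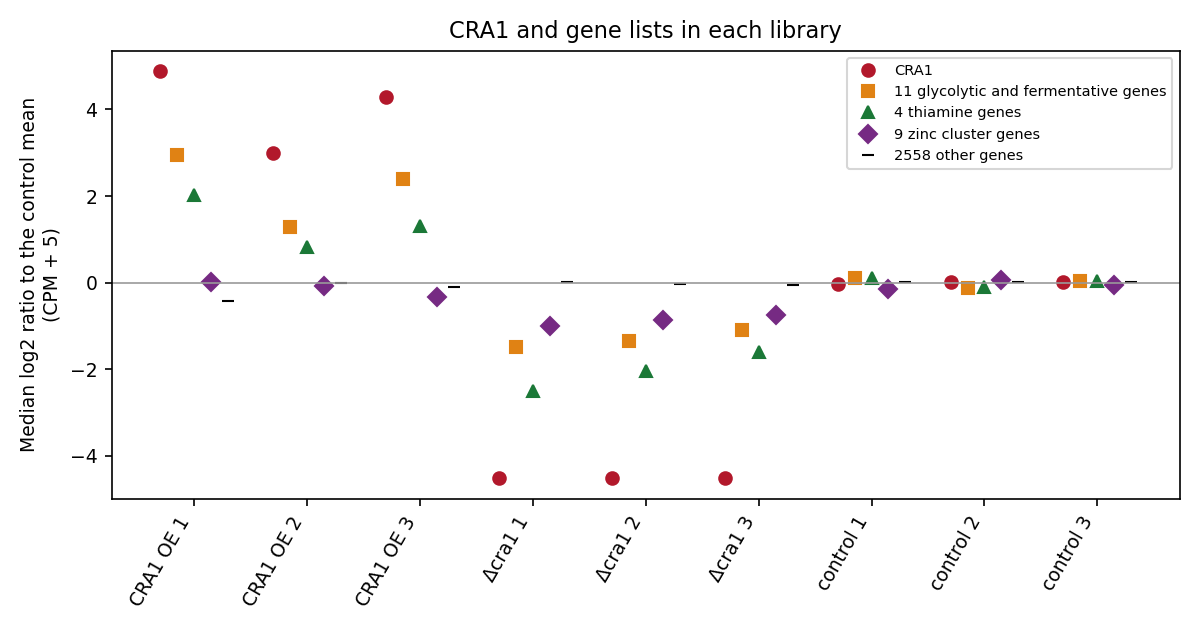
Level of CRA1 and the median of each gene list in each library, as the log2 ratio to the control mean after adding 5 CPM, with overexpression at the left, Δcra1 in the middle and control at the right. CRA1 stands at 4.89, 2.99 and 4.29 in overexpression replicates 1, 2 and 3, and the glycolytic and fermentative list at 2.95, 1.28 and 2.40. In the Δcra1 libraries the value of CRA1, −4.52, is set by the added 5 CPM.

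Step by step, the lists could be read against *CRA1* in the 3 overexpression libraries. At log2 ratios of *CRA1* to the control mean of 4.89, 2.99 and 4.29 in overexpression replicates 1, 2 and 3 (after adding 5 CPM), the median ratio of the 11 glycolytic and fermentative genes was 2.95, 1.28 and 2.40. The median of the 4 thiamine genes was 2.03, 0.83 and 1.31. The 9 zinc cluster genes averaging 10 counts or more were at 0.02, −0.08 and −0.34, without the steps of *CRA1*. PP7435_Chr4-0093, a zinc cluster gene called higher in the overexpression strain, averaged fewer counts and is not among them. In the *Δcra1* libraries the medians were −1.49, −1.35 and −1.09 for the 11 enzyme genes, −2.50, −2.05 and −1.60 for the thiamine genes and −1.01, −0.85 and −0.76 for the zinc cluster genes. The 2558 genes had medians of −0.41, −0.01 and −0.10 in overexpression replicates 1, 2 and 3, and of −0.06 to 0.00 in *Δcra1* replicates. The glycolytic list was highest in overexpression replicate 1, where the median gene was lowest. CPM are counts on a common total, so that these values are not independent of each other. Total counts and the mitochondrial share of the libraries had the order of *CRA1* as well, and their part in the steps was not tested.

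The other zinc cluster genes were mostly not called when *CRA1* was overexpressed. In the overexpression strain 2 of 9 tested were called higher than in the control and 0 lower, beside 7.15% and 0.806% of all genes tested, with a median log2 fold change of 0.68. These were PP7435_Chr4-0093, at 3.59 (adjusted p = 0.0034), and PP7435_Chr3-0530, at 2.89 (adjusted p = 0.0036, both from Benjamini-Hochberg adjustment in edgeR's quasi-likelihood fit). PP7435_Chr4-0093, annotated with a Gal4-like domain, had 22, 15 and 27 counts in the overexpression libraries, 1, 2 and 2 in the *Δcra1* libraries and 1, 1 and 2 in the control libraries. PP7435_Chr3-0530 had 47, 30 and 19 counts in the overexpression libraries, 5, 14 and 11 in the *Δcra1* libraries and 3, 4 and 3 in the control libraries. Neither had enough counts for the test of the *Δcra1* strain against the control. Both passed the count filter here through the overexpression libraries, where they are high, so that the filter favoured a higher call. Neither had the library order of *CRA1*. Without control replicate 2, 1 of the 9 genes was called higher.

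In the *Δcra1* strain 4 of 8 zinc cluster genes tested were called lower and 2 higher, each against the control, beside 8.53% and 13.1% of all genes tested. The lower ones were PP7435_Chr2-0006 at −2.29, PP7435_Chr3-0715 at −2.15, PP7435_Chr1-0281 at −1.36 and *CAT8-2* at −1.08. *CAT8-2* belongs to the Cat8 factors, which in *S. cerevisiae* activate genes for growth on carbon sources other than sugars. *LEU3*, whose product in *S. cerevisiae* controls branched-chain amino acid synthesis, and PP7435_Chr4-0388 were called higher at 1.11 and 1.26. PP7435_Chr4-0388 had 34, 25 and 31 counts in the *Δcra1* libraries and 8, 3 and 7 in the control libraries. It passed the count filter here through its *Δcra1* counts and was not tested in the overexpression strain against the control. The higher calls were absent with DESeq2, and 1 of them was lost without control replicate 2 or 3 or without *Δcra1* replicate 1. PP7435_Chr3-0715 had 155, 129 and 137 TPM in the *Δcra1* libraries, below all control libraries.

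Of 5 genes for regulators and sensors of the glucose response, 1 had enough counts for the test of the overexpression strain against the control, the same *CAT8-2*, at 0.91 without a call (adjusted p = 0.064, Benjamini-Hochberg adjustment in edgeR's quasi-likelihood fit). *HGT2*, annotated as a glucose sensor or transporter gene, had its highest counts where *CRA1* was absent. It had 4 counts in each overexpression library, 52, 29 and 37 in the *Δcra1* libraries and 3, 0 and 1 in the control libraries, and was called higher in the *Δcra1* strain than in the control at a log2 fold change of 3.75 (standard error 0.56), from few control counts. Between the overexpression and the *Δcra1* strain 3 of the 5 were called higher and 1 lower, beside 9.8% and 5.67% of all genes tested. The higher ones were *NRG1* at 2.88, *AZF1* at 1.95 and *CAT8-2* at 1.85, and *HGT2* was the lower one at −2.68. *NRG1* and *AZF1* passed the count filter through the overexpression libraries, where they are high, and neither could be tested against the control. *HGT2* passed it through the *Δcra1* libraries, also in the comparison with the control. The direction of these calls is thus not independent of the filter. *NRG1*, which codes for a repressor, had low counts of 13, 23 and 16 with *CRA1* overexpressed, of 8, 1 and 2 with *CRA1* deleted and of 1, 6 and 6 in the control.

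Genes were finally ranked by how closely their whole pattern over 9 libraries came to that of *CRA1*. The measure was the root mean square difference between log2 ratios to the control mean, after adding 5 CPM, over 2558 genes. The libraries of a strain share their culture conditions and the genes share their libraries, so the ranking is a description. The median gene was at 3.64, and a gene that never left the control level would be at 3.53. The 10 nearest genes were *GPM1* at 1.14, *ADH2* at 1.24, *ENO1* at 1.40, PP7435_Chr4-0289 at 1.48, *DOG1* (PP7435_Chr2-1289) at 1.51, *TDH3* at 1.68, PP7435_Chr2-0416 at 1.69, *HID1* (PP7435_Chr3-0801) at 1.82, *MGR3* (PP7435_Chr1-2632) at 1.85 and *ACS2* (PP7435_Chr3-0810) at 1.85. The next one was *PGK1*, also at 1.85, so that the tenth place is nearly shared. The 11 glycolytic and fermentative genes had a median rank of 19 and the 4 thiamine genes a median rank of 30, while 9 zinc cluster genes had a median rank of 160 and a best rank of 101. The zinc cluster gene PP7435_Chr4-0093 averaged fewer than 10 counts and was not ranked.

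**Figure D5:**
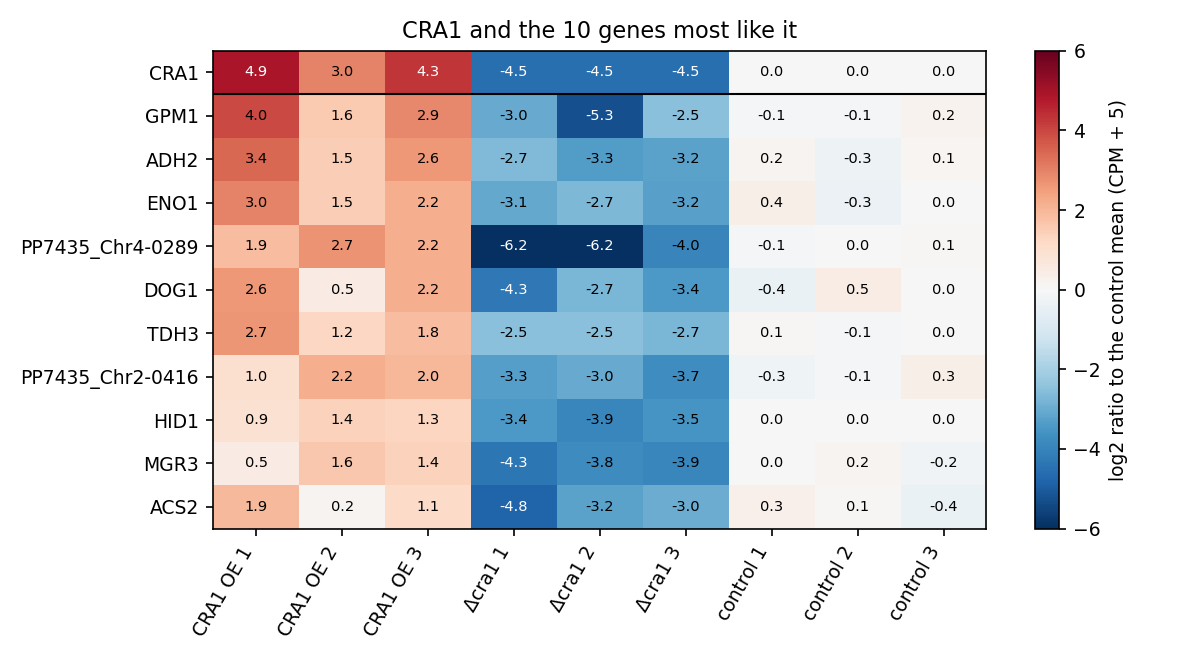
Log2 ratio to the control mean, after adding 5 CPM, of CRA1 and the 10 genes nearest to it in each library, with overexpression at the left, Δcra1 in the middle and control at the right. Red is above and blue below the control mean. All 10 genes are above it in each overexpression library and below it in each Δcra1 library, and CRA1 itself has the highest ratio of the 11 genes in every overexpression library.

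The nearest gene, *GPM1*, codes for phosphoglycerate mutase of lower glycolysis. The overexpression libraries had 721, 59 and 199 counts of it, the *Δcra1* libraries 4, 0 and 7, and the control libraries 18, 17 and 22. Its order over the overexpression libraries was thus that of *CRA1*, at log2 ratios to the control mean of 3.96, 1.55 and 2.87, beside 4.89, 2.99 and 4.29 for *CRA1*. *ADH2*, second in the ranking, had 1397, 156 and 469 counts in the overexpression libraries, 17, 10 and 13 in the *Δcra1* libraries and 62, 43 and 58 in the control libraries. *ENO1*, the enolase gene, had 1246, 195 and 431 counts in the overexpression libraries, 16, 20 and 16 in the *Δcra1* libraries and 86, 52 and 65 in the control libraries. *TDH3*, the glyceraldehyde-3-phosphate dehydrogenase gene, had 1415, 234 and 473 counts in the overexpression libraries, 34, 33 and 33 in the *Δcra1* libraries and 101, 87 and 94 in the control libraries. In these enzyme genes no library of 1 strain overlapped with those of another after scaling. Their calls against the control in the overexpression strain were lost without control replicate 2 or 3, and for *GPM1* and *TDH3* without control replicate 1 as well.

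*DOG1*, named after the 2-deoxyglucose-6-phosphate phosphatase of *S. cerevisiae*, had 141, 14 and 63 counts in the overexpression libraries, 0, 2 and 1 in the *Δcra1* libraries and 7, 13 and 9 in the control libraries. Its log2 fold change in the overexpression strain was 2.47 (adjusted p = 0.048 in the edgeR fit), just inside the threshold, and the call was lost without any 1 control library or without overexpression replicate 3. *DOG1* passed the count filter of this comparison through the overexpression libraries, where it is high, so that the filter favoured a higher call. In the *Δcra1* strain it had too few counts to be tested against the control. *ACS2*, an acetyl-CoA synthetase gene, had 126, 16 and 42 counts in the overexpression libraries, 0, 2 and 3 in the *Δcra1* libraries and 17, 14 and 10 in the control libraries. It was called lower in the *Δcra1* strain at −3.96 and not called in the overexpression strain, at 1.73 (adjusted p = 0.083, Benjamini-Hochberg adjustment in edgeR's quasi-likelihood fit). Without overexpression replicate 2, *ACS2* was called there at 2.04.

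The other 4 of the 10 genes were near *CRA1* between strains but not within the overexpression strain, where they were highest in replicate 2 and lowest in replicate 1. PP7435_Chr4-0289 had 626, 487 and 462 counts in the overexpression libraries, 1, 1 and 10 in the *Δcra1* libraries and 70, 70 and 76 in the control libraries. Its log2 fold changes against the control were 2.56 with *CRA1* overexpressed (standard error 0.14, adjusted p = 2.0e-05) and −5.17 with *CRA1* deleted (standard error 0.35, adjusted p = 2.9e-14), from Benjamini-Hochberg adjustment in edgeR's quasi-likelihood fit. PP7435_Chr2-0416 was at 2.04 and −3.49, *HID1* at 1.51 and −3.61 and *MGR3* at 1.48 and −3.99, all called, with the overexpression call of *MGR3* lost without control replicate 2 (adjusted p = 0.055 in the edgeR fit). *MGR3* had 353, 335 and 392 counts in the overexpression libraries, 10, 15 and 16 in the *Δcra1* libraries and 110, 117 and 91 in the control libraries. In *S. cerevisiae*, Mgr3 is a subunit of a protease complex of the mitochondrial inner membrane. Over the overexpression libraries the log2 ratio of *MGR3* to the control mean was 0.49, 1.60 and 1.40, not in the steps of *CRA1*.

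The top of the ranking depended less on the settings than the rest. Over 14 alternative settings, *GPM1*, *ADH2* and *ENO1* were among the 10 nearest genes in 14, *TDH3* in 12, PP7435_Chr4-0289, *DOG1* and PP7435_Chr2-0416 in 11, *HID1* in 7, *MGR3* in 5 and *ACS2* in 4. Pearson's r between the profile of *CRA1* and those of the 10 genes was 0.930 to 0.995 over the 9 libraries, which fall into 3 strains and share their depth between genes.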

How the data were processed

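Poly(A) RNA of 9 cultures was sequenced on an Illumina HiSeq. The authors trimmed the reads with Trim Galore 0.4.2 and assigned them with kallisto (version 0.44.0 in the submitters' processing notes) to transcripts of the CBS7435 annotation of 2016. They deposited estimated counts and TPM values per library, neither scaled between libraries. They also deposited normalized counts for each pair of strains, a signal obtained by dividing estimated counts by DESeq2's factors, which were only read beside the estimated counts. Deposited TPM sum to a constant in each library. Of all columns, 0 lacked a sample.

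Estimated counts were rounded to whole numbers. Each pair of strains was fitted over its own 6 libraries in R 4.3.3 with edgeR 4.0.16 (filterByExpr, TMM factors, quasi-likelihood test, Benjamini-Hochberg adjustment over all genes tested), and calls took the study's cutoffs, an adjusted p under 0.05 and a log2 fold change of at least 1 in size. The p-values set a difference between strains against the spread between cultures of 1 transformant per strain. They cannot tell the change in *CRA1* from other differences between the transformants. Each standard error given is approximate, the size of the log2 fold change divided by the square root of its quasi-likelihood F statistic. Single values were compared by exact permutation tests. Orders and profiles used TMM-scaled CPM of genes averaging 10 counts or more. On simulated counts, 89.5%, 94.5% and 89.5% of 200 genes changed 4-fold were recovered in the overexpression, deletion and overexpression-against-deletion comparisons. These genes were picked at an expected 10 counts or more, so the shares do not cover genes with fewer counts. The simulated libraries had the same make-up apart from these genes, unlike overexpression replicate 1.

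The genes named were *CRA1*, the members of the lists, the 10 genes nearest to *CRA1* in profile, and genes with 0 counts in all *Δcra1* libraries and at least 3 in each other library; the neighbours of *CRA1* were added after their values were seen. The gene and the lists were chosen with earlier results of these data known. Gene names came from the study's table, which names 714 identifiers, and 0 of the identifiers matched the reference table of strain GS115. No sequence is printed. Alternatives were DESeq2 1.42.0 without and with length offsets, RLE factors, library totals, no filter or a mean of 50 counts, 1 fit over all libraries, the replicate number as a block, limma 3.58.1 on log2(TPM + 1) and log2(TPM + 0.1), and each library left out in turn.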

Additional observations from a re-analysis of the deposited data

Results flagged for a closer look

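The Kanamycin resistance sequence, which no comparison of the study uses, had 19, 10 and 16 counts in overexpression replicates 1, 2 and 3, against 0 in each control library. Its source in the overexpression strain was not tested.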

How the results depend on the processing

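*CRA1* kept its direction and its call under each of 16 alternatives with a test, at log2 fold changes of 4.02 to 5.10 (overexpression against control), −7.54 to −4.29 (*Δcra1* against control) and 8.58 to 12.27 (overexpression against *Δcra1*), with adjusted p-values of up to 0.025, 0.0095 and 0.0056 in edgeR, DESeq2 or limma. Where *Δcra1* libraries hold 0 counts these values depend on the prior count and are no bounds; with 1 added to the deposited normalized counts they were −4.13 and 8.62. With single libraries left out, *CRA1* was at 4.02 to 5.10, −7.25 to −6.93 and 11.20 to 12.27. The labels do not say whether the replicate numbers pair the libraries. Deviations of same-numbered libraries correlated at −0.427 to 0.166, the lowest between overexpression and *Δcra1* replicates 1. Between control and overexpression libraries they correlated at 0.166, 0.155 and 0.055 for replicates 1, 2 and 3, against −0.156 to −0.004 for differently numbered ones. With the replicate number as a block, *CRA1* was at 4.57, −7.09 and 11.78, and 307 genes were called in the overexpression strain instead of 158, *ACS2* among them at 1.56 (adjusted p = 0.014, edgeR). With libraries left out that count was 44 to 574. It was 415 to 558 for *Δcra1* against control (517 with all libraries) and 282 to 775 for overexpression against *Δcra1* (475), with 775 without overexpression replicate 2 and 307, 282 and 298 without *Δcra1* replicates 1, 2 and 3. Calls of list members against the control ranged over 0 to 11 (glycolytic and fermentative, higher), 1 to 3 (further glycolytic, higher), 0 to 3 (thiamine, higher) and 1 to 2 (zinc cluster, higher) in the overexpression strain, and over 1 to 2 (glycolytic and fermentative, higher) and 1 to 2 (zinc cluster, higher) in the *Δcra1* strain. With DESeq2, without or with length offsets, the last 2 counts were 1 and 0; the cause was not tested. The share of genes in the *CRA1* order was 24.2% by TPM, 28.3% with library totals and 13.6% with a mean of at least 30 counts. Of the 10 genes nearest to *CRA1*, 5 were shared after adding 20 CPM, 4 with TPM, 5 with Pearson's r as the measure, and 7 to 10 with a library left out. With 11 counts of *CRA1* per control library, depth limits the precision of its control level.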
